A study of Mus musculus with 18 samples.

Results

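Of the 15544 genes measured in mouse lung epithelium, 10 are described here, the interferon-stimulated genes Oas2, Ifit1, Ifit2, Ifit3, Isg15, Irf7, Ddx58, Gbp2, Gbp3 and Cxcl10. They were taken as a list of gene symbols matched to the Ensembl identifiers of the files, and 10 of 10 were found and passed the filter on low values, which kept 15249 genes. RNA sequencing had been done on EpCAM+ cells taken from lungs of mice aged 10 to 12 weeks with antibody-coated magnetic beads. The 18 libraries come from 5 wild-type samples (numbers 1 to 5), 5 Falcor-/- samples (6 to 10), 4 Foxa2+/- samples (11 to 14) and 4 samples labelled Double-Het, Falcor+/-;Foxa2+/- (15 to 18). Falcor is a long noncoding RNA, listed in the annotation as 9030622O22Rik, and Foxa2 is a forkhead transcription factor of endoderm-derived epithelium. The groups ask what losing both copies of Falcor, 1 copy of Foxa2, or 1 copy of each does to the transcripts of these cells.

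Interferons are secreted by cells that sense foreign nucleic acid. They bind receptors on the same and neighbouring cells, and the receptors' JAK kinases activate transcription factors of the STAT and IRF families, which bind interferon-stimulated response elements in the promoters of many target genes. The products of those genes sense viral RNA, block its translation, disrupt the compartments that pathogens live in, or attract T cells. Airway and alveolar epithelium, macrophages and endothelium of the lung can all respond to interferons, so RNA of these genes is not a mark of 1 cell type.

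All values are log2 expression levels as the authors deposited them, and whether they were scaled for gene length is not stated, so levels of different genes were not compared. A difference of 1 unit is a 2-fold difference. The test throughout was limma's linear model across all genes and all 18 libraries, 2-sided, and a gene is said to have risen or fallen where its Benjamini-Hochberg adjusted p was below 0.05. An exact permutation test (2-sided) is given beside it for single genes. Its smallest possible p is 0.00794 for 5 libraries against 5, 0.0159 for 4 against 5 and 0.0286 for 4 against 4, and the 60 exact tests were not adjusted. The labels do not state how samples and animals correspond within a group, so the p-values measure the spread between these samples, which may be in part technical.

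The genotype labels were checked on the targeted genes. Falcor RNA lay between 5.39 and 7.27 in the Falcor-/- libraries against 9.68 to 10.72 in wild type. It lay between 11.46 and 11.96 in Foxa2+/- and between 11.50 and 11.86 in the libraries labelled Double-Het, so a lost Falcor copy was not visible there as less RNA. Foxa2 was at 12.83 to 13.03 in wild type, 12.42 to 12.99 in Falcor-/-, 12.35 to 12.47 in Foxa2+/- and 12.12 to 12.58 in Double-Het. Epithelial markers such as Epcam and Cdh1 were present in all libraries, with a mean over 5 genes of 14.79 to 15.14. Their presence does not measure how pure the EpCAM+ cells were. Markers of other cells were also present and differed between genotypes. The mean of 12 macrophage markers was 12.06 to 12.75 in wild type, 9.90 to 12.43 in Falcor-/-, 12.14 to 12.53 in Foxa2+/- and 10.24 to 11.40 in Double-Het. The mean of 16 endothelial markers was 11.84 to 13.32, 11.46 to 13.23, 10.68 to 11.21 and 10.15 to 10.78 in the same order. In these bulk samples, fewer cells of a type and less RNA per cell cannot be told apart.

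In a RefSeq promoter table (build GRCm38.p6), 6 of the 9 member genes found carried the core of an interferon-stimulated response element in the 250 bases before a start site. That core is GAAA, any 2 bases and GAAA again, or TTTC, any 2 bases and TTTC on the other strand. The stretches around these matches are printed because they show the element that these 6 genes have in common. Each is written 5′ to 3′ on the gene's own strand, with matches in capitals.
Isg15 (chr4:156200865-156200936, minus strand): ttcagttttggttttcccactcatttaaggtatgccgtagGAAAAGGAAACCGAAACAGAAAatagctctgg
Ifit1 (chr19:34640745-34640823, plus strand): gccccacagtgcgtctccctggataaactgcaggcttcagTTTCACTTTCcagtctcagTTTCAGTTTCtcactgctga
Ifit3 (chr19:34583333-34583426, plus strand): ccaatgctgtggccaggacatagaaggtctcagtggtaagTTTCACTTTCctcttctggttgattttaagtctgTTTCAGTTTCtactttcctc
Gbp2 (chr3:142620564-142620623, plus strand): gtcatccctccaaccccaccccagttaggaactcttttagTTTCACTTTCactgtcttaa
Gbp3 (chr3:142559959-142560024, plus strand): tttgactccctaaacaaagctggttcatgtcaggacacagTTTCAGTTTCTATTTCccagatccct
Cxcl10 (chr5:92349029-92349139, minus strand): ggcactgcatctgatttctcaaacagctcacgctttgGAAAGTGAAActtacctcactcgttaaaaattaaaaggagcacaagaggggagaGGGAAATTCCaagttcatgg

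Both strands of the same window were searched at all 32851 start sites of the table, and 2.98% held this core. This is a share of start sites, whereas the figures for members and other pathway genes are counts of genes. The capitals of Isg15 are 3 overlapping matches in 1 run, and those of Gbp3 are 2 overlapping matches. The second run of capitals in Cxcl10 matches GGGA, any 2 bases and TTCC, a core of NF-kappaB sites, which 1.21% of start sites held. Ifit2 did not hold the interferon element core in this window, but it held overlapping matches to the NF-kappaB core and to TTCNNNGAA, a core of STAT dimer sites found at 7.02% of start sites. Irf7 and Ddx58 matched none of these 3 motifs there, and no start site of Oas2 was matched in the table. Among the other pathway genes described below, 21 of 78 in the table held the interferon element core, with 7 of 8 of the interferon-induced GTPases among them. A match describes letters only and is not a measurement of binding.

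Across the 10 genes, 3 fell and 0 rose in Falcor-/- against wild type, 0 changed in Foxa2+/-, and 5 fell and 0 rose in Double-Het. Over all genes tested, 4.24% fell and 5.23% rose in Falcor-/-, 4.15% fell and 1.96% rose in Foxa2+/-, and 7.57% fell and 7.21% rose in Double-Het. The median difference of the 10 genes from wild type was -0.37 in Falcor-/-, -0.11 in Foxa2+/- and -0.77 in Double-Het, while the medians of all tested genes were 0.03, 0.04 and 0.07. These 3 comparisons share the wild-type libraries. The 10 genes and the pathway lists below were chosen with earlier results of these data known. Counts and medians set beside those of all genes are therefore descriptions and not tests of the lists. In Foxa2+/-, 3 of 10 had an unadjusted limma p below 0.05 against 19.2% of all genes, and 1 of 10 had an exact permutation p below 0.05 against 21.6%.

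The members did not move as 1 block. Oas2 and Gbp3 fell in Falcor-/- and Double-Het, Gbp2 fell in Double-Het, and Ddx58 fell in Falcor-/-. Ifit2 and Ifit3 had their lowest means in Foxa2+/- and Double-Het, of which Ifit2 in Double-Het passed against wild type. Cxcl10 had its highest mean in Foxa2+/- and its lowest in Double-Het. Isg15, Ifit1 and Irf7 passed the test in none of the 6 pairs of genotypes.

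**Figure D1:**
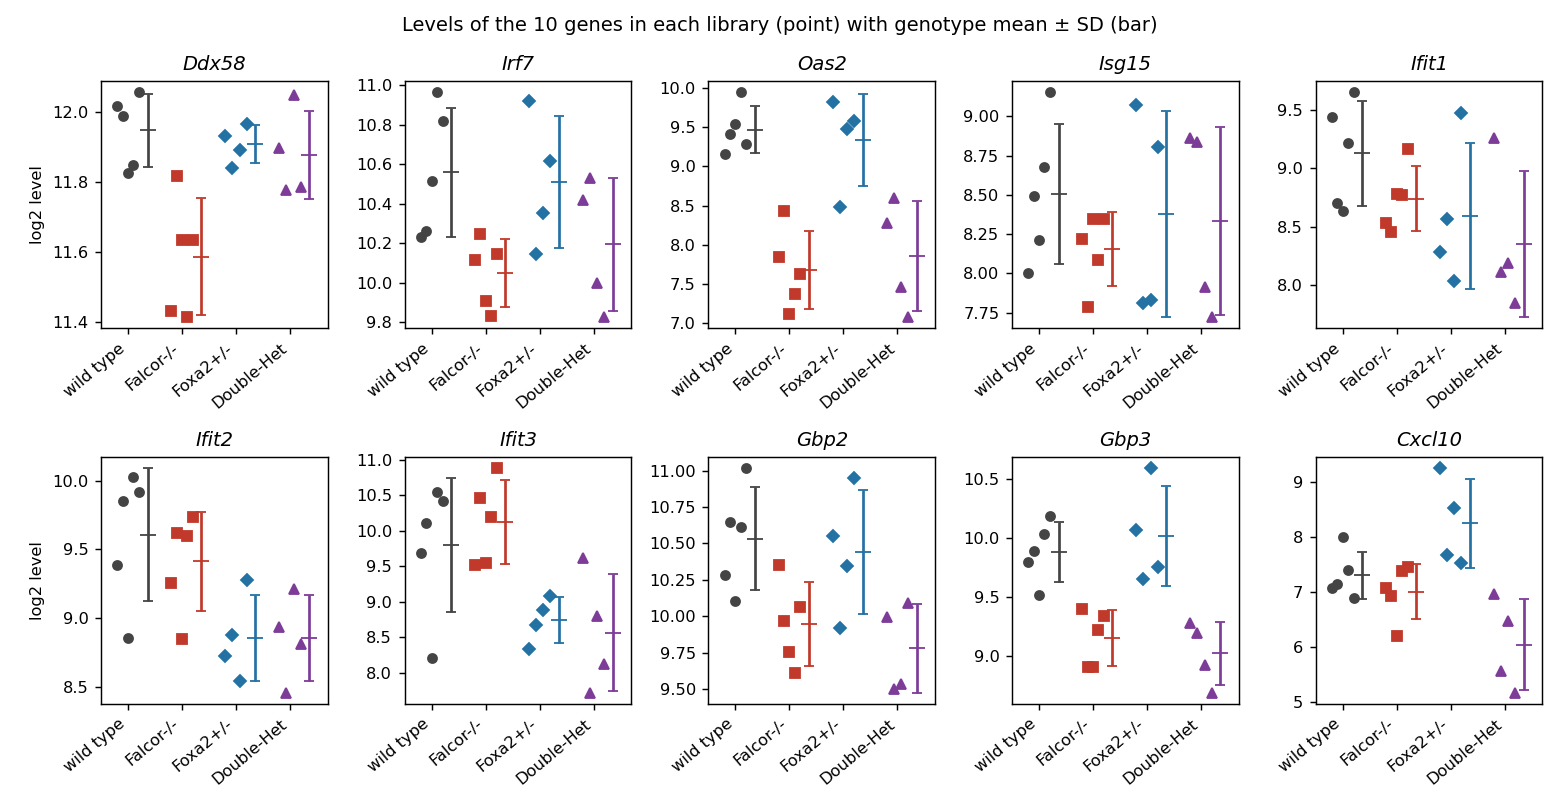
Log2 expression level (vertical axis, a separate scale for each gene) of the 10 genes in each library, with 1 point per library and each genotype's mean with its SD as an error bar (n = 5, 5, 4 and 4). Each Falcor-/- and Double-Het library lies below all 5 wild-type libraries for Oas2 and for Gbp3, and Cxcl10 ranges from 5.18 in Double-Het to 9.26 in Foxa2+/-.

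Ddx58 encodes RIG-I, the cytoplasmic helicase that recognises viral RNA and starts interferon production. Its levels were 12.02, 11.99, 11.82, 11.85 and 12.06 in wild type and 11.43, 11.82, 11.63, 11.41 and 11.63 in Falcor-/-. The Foxa2+/- libraries were at 11.93, 11.84, 11.89 and 11.96 and the Double-Het libraries at 11.90, 11.78, 12.05 and 11.78. The 5 Falcor-/- values lay below all 5 wild-type values, though sample 7 came close to them, and 2 Double-Het values were lower than sample 7. Ddx58 fell by 0.36 (SE 0.08, n = 5 and 5) in Falcor-/-, to 77.9% of wild type, with an adjusted p of 0.0169 and an exact permutation p of 0.00794. It kept an adjusted p of at most 0.0485 whichever of the 10 libraries was left out, but missed the threshold in a fit on these 2 genotypes alone (adjusted p = 0.053). The differences in Foxa2+/- (-0.04, 95% interval -0.22 to 0.14) and Double-Het (-0.07, -0.25 to 0.11) did not pass. Between mutants it was 0.32 higher in Foxa2+/- than in Falcor-/- (SE 0.08, adjusted p = 0.0207). That last call was lost when Falcor-/- sample 6 or 9 or Foxa2+/- sample 13 or 14 was left out, with an adjusted p up to 0.058, and in the fit on the 2 genotypes alone (adjusted p = 0.0578).

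Around Ddx58, a list of 18 further nucleic acid sensors and adaptors held 1 gene that rose and 0 that fell in Falcor-/-, 0 of either in Foxa2+/- and 1 that fell in Double-Het. Tlr3, an endosomal sensor of double-stranded RNA, rose by 0.63 in Falcor-/- (SE 0.17, adjusted p = 0.031). Tlr7, an endosomal sensor of single-stranded RNA, was lower in Double-Het (difference from wild type -2.37, SE 0.61, adjusted p = 0.0145). Ifih1, the RIG-I relative MDA5, differed by -0.09 in Falcor-/- (adjusted p = 0.463) and did not pass in any comparison with wild type. Its adaptor gene Mavs differed by -0.18 there (adjusted p = 0.155).

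Irf7 is the transcription factor that amplifies the production of type I interferon and is itself induced by it. Its levels ran from 10.23 to 10.96 in wild type, from 9.83 to 10.25 in Falcor-/-, from 10.15 to 10.92 in Foxa2+/- and from 9.83 to 10.53 in Double-Het. The Falcor-/- libraries lay below the wild-type range except for sample 7, which was just inside it. The difference of -0.51 (SE 0.18) missed the threshold (adjusted p = 0.0681, exact permutation p = 0.0159), and it passed in 1 of 10 runs that left out a library.

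Upstream of these genes, the differences from wild type in receptor and signalling genes that passed were small. Of 6 receptor genes, Ifnar1, a chain of the type I interferon receptor, fell by 0.24 in Falcor-/- (SE 0.07, adjusted p = 0.0384). In Double-Het, Ifnar2, the other chain of that receptor, fell by 0.22 (SE 0.07, adjusted p = 0.0376) and Ifnlr1, the specific chain of the type III receptor of epithelia, rose by 0.28 (SE 0.07, adjusted p = 0.015). Of 9 kinases and transcription factors, Jak1, the kinase shared by these receptors, fell by 0.28 in Falcor-/- (SE 0.07, adjusted p = 0.0247) and by 0.25 in Double-Het (SE 0.07, adjusted p = 0.0292). No receptor gene and none of these 9 changed in Foxa2+/- by the adjusted limma p. Stat2 differed from wild type by -0.18, -0.05 and -0.22 in Falcor-/-, Foxa2+/- and Double-Het, all without passing. Between mutants, Irf9, the DNA-binding partner of Stat2, was 0.83 higher in Foxa2+/- than in Falcor-/- (SE 0.18, adjusted p = 0.0093). Irf8 was lower in the same comparison (-0.55, SE 0.18, adjusted p = 0.0498), and Irf1 was lower in Double-Het than in Falcor-/- (-0.40, SE 0.10, adjusted p = 0.0279). Of 9 measured inhibitors of the response, among them Socs1 and Usp18, 0 passed against wild type in any genotype. Genes of the interferons themselves were not analysed here.

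Oas2 showed the largest fall of the 10 genes against wild type in Falcor-/- and in Double-Het. It encodes an oligoadenylate synthetase, an enzyme that makes short oligoadenylate signals when double-stranded RNA is present. Its levels were 9.15, 9.42, 9.54, 9.95 and 9.29 in wild type and 7.85, 8.43, 7.12, 7.38 and 7.63 in Falcor-/-. The Foxa2+/- libraries were at 9.82, 8.49, 9.48 and 9.58, and the Double-Het libraries at 8.28, 8.60, 7.46 and 7.08. All 9 Falcor-/- and Double-Het values lay below the lowest wild-type value, and 3 of 4 Foxa2+/- values lay above the wild-type mean of 9.47.

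Oas2 fell by 1.79 in Falcor-/- (SE 0.31, n = 5 and 5), to 29.0% of wild type (adjusted p = 0.00573, exact permutation p = 0.00794). In Double-Het it fell by 1.61 (SE 0.33, n = 4 and 5), to 32.7% of wild type (adjusted p = 0.00355, exact permutation p = 0.0159). Both calls held with any single library left out, with adjusted p up to 0.0165 and 0.0139. Foxa2+/- differed from wild type by -0.13 (95% interval -0.83 to 0.57). Oas2 was 1.66 higher in Foxa2+/- than in Falcor-/- (SE 0.33, adjusted p = 0.0066). Double-Het lay 1.49 units under Foxa2+/- (difference -1.49, SE 0.35, adjusted p = 0.0339, exact permutation p = 0.0571), and this call held in 3 of 8 runs, those without Foxa2+/- sample 12 or Double-Het sample 15 or 16. In the other runs its adjusted p reached 0.109, and it was 0.0902 in a fit on the 2 genotypes alone. Double-Het and Falcor-/- differed by 0.17, with a 95% interval from -0.53 to 0.87.

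Of the 7 other oligoadenylate synthetase genes measured, 0 fell in any genotype by the adjusted p. Oas3 differed by -1.0 in Falcor-/- (adjusted p = 0.0561) and -0.88 in Double-Het (adjusted p = 0.0942), Oas1a by -0.37 and -0.03, and Oasl2 by -0.61 and -0.57. Oas1c rose by 0.45 in Double-Het (SE 0.14, adjusted p = 0.0375).

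Gbp2 and Gbp3 encode guanylate-binding proteins, large GTPases that coat the vacuoles and membranes of intracellular pathogens and are induced above all by interferon gamma. Gbp3 was at 9.80, 9.89, 9.52, 10.03 and 10.19 in wild type and at 9.40, 8.91, 8.91, 9.22 and 9.34 in Falcor-/-. It was at 10.07, 9.66, 10.60 and 9.75 in Foxa2+/- and at 9.28, 9.20, 8.92 and 8.70 in Double-Het. The Falcor-/- and Double-Het values formed a low set below all 9 of the others.

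Gbp3 fell by 0.73 in Falcor-/- (SE 0.18, adjusted p = 0.0262, exact permutation p = 0.00794) and by 0.86 in Double-Het (SE 0.19, adjusted p = 0.00633, exact permutation p = 0.0159). That is 60.3% and 55.1% of wild type. The Double-Het call held with any library left out. The Falcor-/- call was lost without wild-type sample 1, 2 or 4 or Falcor-/- sample 8, where the adjusted p was 0.0536 to 0.0632. Gbp3 was 0.86 higher in Foxa2+/- than in Falcor-/- (SE 0.19, adjusted p = 0.0106). Double-Het was at 50.2% of Foxa2+/- (difference -0.99, SE 0.20, adjusted p = 0.0184), a call lost without Foxa2+/- sample 13 or Double-Het sample 17 (adjusted p 0.0547 to 0.0681) and in a fit on the 2 genotypes alone (adjusted p = 0.0634).

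Gbp2 was at 10.28, 10.65, 10.10, 10.61 and 11.02 in wild type and 10.35, 9.97, 9.76, 9.61 and 10.06 in Falcor-/-. It was at 10.55, 9.92, 10.34 and 10.95 in Foxa2+/- and 10.00, 9.50, 9.54 and 10.09 in Double-Het. Double-Het lay just below the whole wild-type range, and Falcor-/- overlapped it. Gbp2 fell by 0.75 in Double-Het (SE 0.22, adjusted p = 0.0279, exact permutation p = 0.0159), to 59.4% of wild type. This call was lost without wild-type sample 2, 4 or 5 or Double-Het sample 16 or 17, with an adjusted p up to 0.0971. In Falcor-/- the difference of -0.58 (SE 0.20) did not pass (adjusted p = 0.0694).

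The wider family split the same way for part of its members. Gbp7 fell by 0.94 in Falcor-/- (SE 0.23, adjusted p = 0.0261) and its difference in Double-Het was -1.07 (SE 0.25, adjusted p = 0.008). Gbp2b fell by 0.79 in Falcor-/- (SE 0.17, adjusted p = 0.0139) and by 0.55 in Double-Het (SE 0.18, adjusted p = 0.0439). Neither changed in Foxa2+/-, where they differed by -0.15 and -0.03. Gbp8 fell in Falcor-/- by 0.97 (SE 0.22, adjusted p = 0.0192), with a difference of 0.35 in Double-Het (adjusted p = 0.341), and it was 1.32 higher in Double-Het than in Falcor-/- (SE 0.24, adjusted p = 0.00475). Gbp4 and Gbp9 followed another course. Gbp4 fell in all 3 mutants, with differences of -0.76 (adjusted p = 0.05, below the threshold before rounding), -1.29 (adjusted p = 0.00389) and -1.12 (adjusted p = 0.00614) in Falcor-/-, Foxa2+/- and Double-Het. Gbp9 differed by -1.11 in Foxa2+/- (SE 0.26, adjusted p = 0.014) and by 0.43 in Falcor-/- (adjusted p = 0.213). Of the 14 other interferon-induced GTPases measured, 4, 2 and 3 fell in Falcor-/-, Foxa2+/- and Double-Het and 0 rose. Mx1 and Mx2, which encode dynamin-like antiviral GTPases, did not change in any of the 3 comparisons, with differences between -0.20 and 0.27. In annotated transcripts, 3.75% of the 50-base words of Gbp3 also occur in Gbp7 and 2.03% of those of Gbp2 in Gbp2b, so few reads could be confused between them.

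**Figure D2:**
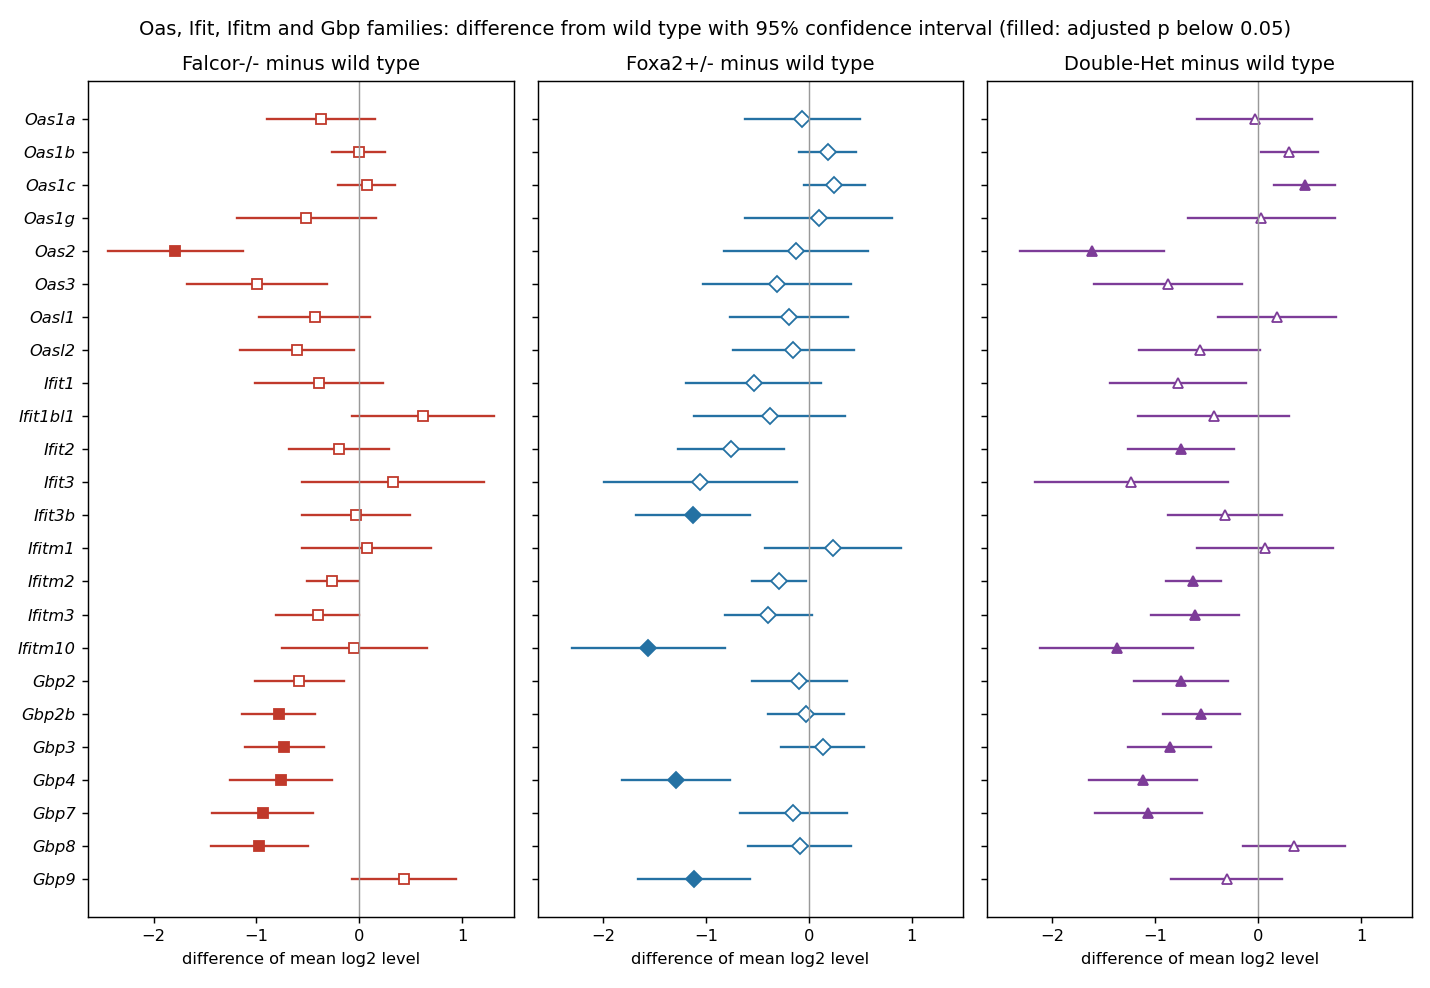
Difference in log2 level from wild type (horizontal axis) for genes of the Oas, Ifit, Ifitm and Gbp families in the 3 mutant genotypes, with 95% intervals from limma and filled points where the adjusted p was below 0.05. Gbp3, Gbp7 and Gbp2b lie below 0 in Falcor-/- and Double-Het and near 0 in Foxa2+/-, whereas Ifitm10 lies below 0 in Foxa2+/- and Double-Het and near 0 in Falcor-/-.

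The Ifit genes encode proteins with tetratricopeptide repeats that bind foreign RNA or its translation factors and block its translation. Ifit2 was at 9.39, 9.85, 8.86, 10.03 and 9.91 in wild type and 9.26, 9.62, 8.85, 9.59 and 9.74 in Falcor-/-. It was at 8.73, 8.88, 8.54 and 9.28 in Foxa2+/- and 8.94, 8.46, 9.21 and 8.81 in Double-Het. The last 2 groups were low, but wild-type sample 3 and Falcor-/- sample 8 were as low as they were. Ifit2 fell by 0.75 in Double-Het (SE 0.24, adjusted p = 0.0466, exact permutation p = 0.0476), to 59.3% of wild type. Only the runs without wild-type sample 3 or Double-Het sample 17 kept this call, and the adjusted p of the others ran up to 0.159. It was 0.0762 in a fit on the 2 genotypes alone. The difference in Foxa2+/- was -0.75 too (SE 0.24) and did not pass (adjusted p = 0.0821, or 0.0286 with library weights). In Falcor-/- it was -0.20 (95% interval -0.68 to 0.29).

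Ifit3 levels were 9.69, 10.11, 8.21, 10.55 and 10.42 in wild type and 9.52, 10.46, 9.55, 10.20 and 10.89 in Falcor-/-. They were 8.34, 8.67, 8.88 and 9.09 in Foxa2+/- and 9.62, 7.72, 8.80 and 8.13 in Double-Het. Here the Foxa2+/- values were all below the Falcor-/- values, and wild-type sample 3 again stood with the low groups. Against wild type Ifit3 differed by 0.33 in Falcor-/- (adjusted p = 0.601), -1.05 in Foxa2+/- (adjusted p = 0.198) and -1.23 in Double-Het (adjusted p = 0.0732). Without wild-type sample 3 the last 2 became -1.45 (adjusted p = 0.0229) and -1.63 (adjusted p = 0.0074), and Ifit2 in Foxa2+/- became -0.94 (adjusted p = 0.0133). Foxa2+/- was at 38.5% of Falcor-/- (difference -1.38, SE 0.45, adjusted p = 0.0439, exact permutation p = 0.0159), but this call stayed in 1 of 9 runs, the one without Falcor-/- sample 8, and the others gave adjusted p from 0.0508 to 0.102. Without an intensity trend its adjusted p was 0.052. Double-Het differed from Falcor-/- by -1.56 (SE 0.45), which missed the threshold (adjusted p = 0.0523).

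Ifit3 has a near-identical neighbour, Ifit3b, and 51.2% of its 50-base words also occur in that gene's transcripts. How the authors' counting shared such reads is not given in the sources used here, so the values of both are uncertain. As deposited, Ifit3b differed from wild type by -1.13 in Foxa2+/- (SE 0.26, adjusted p = 0.0147), -0.03 in Falcor-/- and -0.32 in Double-Het. Ifit1 ran from 8.63 to 9.65 in wild type, 8.45 to 9.16 in Falcor-/-, 8.04 to 9.48 in Foxa2+/- and 7.85 to 9.26 in Double-Het, all overlapping. Its largest difference from wild type, -0.78 in Double-Het (SE 0.31), did not pass (adjusted p = 0.105), and 7.06% of its 50-base words occur in Ifit1bl2.

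Part of the Ifitm family, which includes membrane proteins that hinder the entry of viruses, fell in Double-Het. Ifitm2 fell by 0.63 (SE 0.12, adjusted p = 0.00285) and Ifitm3 by 0.61 (SE 0.20, adjusted p = 0.0484). Ifitm10 fell by 1.38 there (SE 0.35, adjusted p = 0.0148) and by 1.56 in Foxa2+/- (SE 0.35, adjusted p = 0.0124), with a difference of -0.05 in Falcor-/-. Its levels were low, with means of 6.35 in Double-Het and 6.16 in Foxa2+/-, near the filter of 6 log2 units. Of the 7 other Ifit and Ifitm genes tested, 0 changed in Falcor-/-, 2 fell in Foxa2+/- and 3 fell in Double-Het.

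Isg15 encodes a ubiquitin-like protein that is attached to newly made proteins during the interferon response. It ran from 8.0 to 9.15 in wild type, 7.78 to 8.35 in Falcor-/-, 7.81 to 9.07 in Foxa2+/- and 7.72 to 8.86 in Double-Het. The 4 groups overlapped throughout. The differences from wild type were -0.35 (95% interval -0.97 to 0.27), -0.13 (-0.78 to 0.53) and -0.17 (-0.83 to 0.48). The Oas2 difference in Falcor-/- (-1.79) lay outside the Isg15 interval of that genotype. Whether the 2 genes differed in their change was not tested. Of 5 genes listed beside it, among them the E1 enzyme Uba7 and the E2 enzyme Ube2l6 of its conjugation, 0 changed against wild type by the adjusted p.

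Cxcl10 encodes a chemokine that draws T cells and natural killer cells to inflamed tissue. Its levels were 7.07, 7.15, 8.01, 7.40 and 6.90 in wild type and 7.08, 6.92, 6.2, 7.38 and 7.45 in Falcor-/-. They were 9.26, 7.68, 8.54 and 7.52 in Foxa2+/- and 6.97, 5.56, 6.48 and 5.18 in Double-Het. These are low levels, with a Double-Het mean of 6.05, near the filter of 6 log2 units. The mean over all 18 libraries was 7.15, so the filter at 8 left this gene out. Both groups that lack a Foxa2 copy by their labels therefore stood at opposite ends, with every Foxa2+/- value above every Double-Het value.

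Double-Het was at 21.7% of Foxa2+/- (difference -2.20, SE 0.43, n = 4 and 4, adjusted p = 0.0133, exact permutation p = 0.0286). This call was lost without Foxa2+/- sample 13 (adjusted p = 0.0542) and in a fit on these 2 genotypes alone (adjusted p = 0.0634). Against wild type, the difference in Double-Het was -1.26 (SE 0.40, adjusted p = 0.0454, exact permutation p = 0.0317), with 1 of 4 libraries inside the wild-type range, and it kept its call only without Double-Het sample 15 or 17. The adjusted p of the other runs reached 0.142, and it was 0.0657 with library weights and 0.057 in a fit on the 2 genotypes alone. Foxa2+/- differed from wild type by 0.94 (SE 0.40) without passing (adjusted p = 0.205). It was 1.24 above Falcor-/- (SE 0.40, adjusted p = 0.0452), a call kept only without Falcor-/- sample 7 or Foxa2+/- sample 14 (adjusted p up to 0.128 otherwise) and lost with library weights and on the 2 genotypes alone (adjusted p = 0.0713 and 0.0698). Cxcl9 and Ccl5, further interferon-induced chemokines, were measured, and neither changed against wild type. Ccl5 was lower in Foxa2+/- than in Falcor-/- (-0.90, SE 0.25, adjusted p = 0.0278), the direction opposite to Cxcl10.

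**Figure D3:**
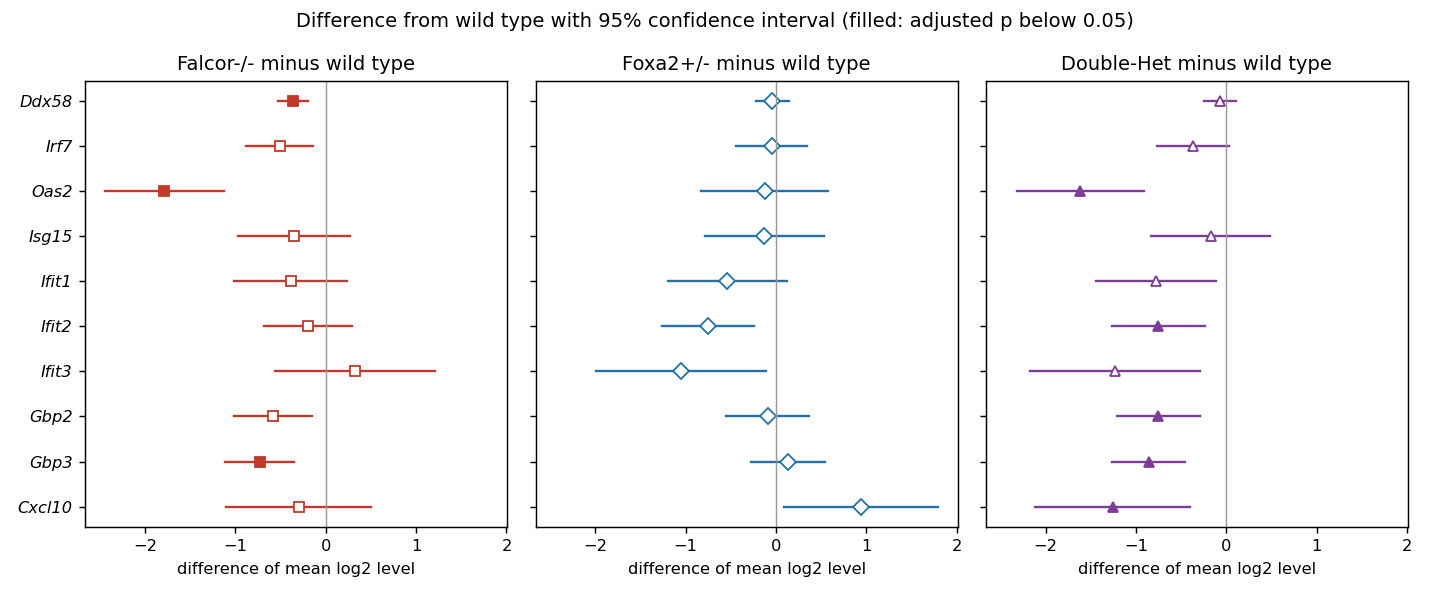
Difference in log2 level (horizontal axis) of the 10 genes from wild type in the 3 mutant genotypes, with 95% intervals from limma and filled points where the adjusted p was below 0.05. Double-Het against wild type holds 5 filled points, all below 0, and Foxa2+/- against wild type holds none.

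Set against each other, the mutants differed in 5 of 10 genes for Foxa2+/- minus Falcor-/-, 0 of 10 for Double-Het minus Falcor-/- and 3 of 10 for Double-Het minus Foxa2+/-. Oas2, Gbp3, Ddx58 and Cxcl10 were higher and Ifit3 lower in Foxa2+/- than in Falcor-/-, where 8.1% of all genes were higher and 8.56% lower. Cxcl10, Gbp3 and Oas2 were lower in Double-Het than in Foxa2+/-, as were 1.37% of all genes. Between Double-Het and Falcor-/- 5.15% of all genes changed in either direction. Of the members, 4 of 10 had an unadjusted limma p below 0.05 in that comparison (21.2% of all genes) and 2 of 10 an exact permutation p below 0.05 (15.3% of all genes). Groups without overlap, lower than wild type, were found for 3 of 10 genes in Falcor-/- (2.31% of all genes), 0 in Foxa2+/- (5.48%) and 3 in Double-Het (7.1%).

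Among 25 other antiviral effectors, 2 fell in Falcor-/-, 1 in Foxa2+/- and 0 in Double-Het, and 0 rose. The 2 were Parp14 (-0.57, SE 0.11, adjusted p = 0.0101), an ADP-ribosyltransferase, and Dtx3l (-0.35, SE 0.09, adjusted p = 0.0279), a ubiquitin ligase. The 1 was Xaf1 (-0.69, SE 0.14, adjusted p = 0.00513), a pro-apoptotic interferon target. Over all pathway lists, 103 genes beside the 10 were tested, of which 9 fell and 1 rose in Falcor-/-, 5 fell and 0 rose in Foxa2+/-, and 10 fell and 2 rose in Double-Het. Their median differences from wild type were -0.14, -0.05 and -0.10. Over all genes tested, 4.24% fell and 5.23% rose in Falcor-/-, 4.15% and 1.96% in Foxa2+/-, and 7.57% and 7.21% in Double-Het.

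The macrophage and endothelial markers moved with part of these results. Of the 12 macrophage markers, 7 fell in Falcor-/-, 0 changed in Foxa2+/- and 7 fell in Double-Het. The list did not move as a whole: 4 of 12 differences were above 0 in Falcor-/- and 2 of 12 in Double-Het, and 0 passed as higher. Lyz2 was at 18.34 to 18.56 in Falcor-/- against 18.21 to 18.27 in wild type. Marco was at 7.12 to 12.57 against 7.69 to 10.63, and Siglecf at 7.40 to 11.34 against 7.72 to 10.31. C1qa, a complement gene of tissue macrophages, was at 13.08 to 13.97 in wild type, 8.92 to 13.73 in Falcor-/-, 13.17 to 14.10 in Foxa2+/- and 9.58 to 10.49 in Double-Het. Oas2 and Gbp3 fell in the same 2 genotypes. The log2 of the summed level of the 12 was 18.54 to 18.62, 18.53 to 18.71, 18.53 to 18.69 and 18.30 to 18.51 in the 4 genotypes, and most of it was Lyz2, which alveolar type 2 cells also express. Without Lyz2 it was 15.98 to 16.47, 13.91 to 16.23, 15.90 to 16.65 and 14.26 to 15.32. None of the 12 was at the lowest value of the files, and the lowest was Msr1, a scavenger receptor, at 5.09 in a Falcor-/- library.

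Within Falcor-/- the macrophage markers varied widely between libraries, with means of 11.27, 11.99, 9.90, 12.43 and 10.78 in samples 6 to 10. Samples 7 and 9, whose means were near or inside the wild-type range, had Oas2 at 8.43 and 7.38 and Gbp3 at 8.91 and 9.22, which is below all wild-type values. With samples 6, 8 and 10 left out, Oas2 differed from wild type by -1.57, Gbp3 by -0.82 and Ddx58 by -0.33. None of the 3 passed with the 2 samples that were left (adjusted p = 0.156, 0.174 and 0.213). For Double-Het there was no library with a mean of the macrophage markers in the wild-type range. The part of these markers in the lower Oas2, Gbp2 and Gbp3 was not tested in either genotype.

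Of the 16 endothelial markers, 0 changed in Falcor-/-, and 14 fell in Foxa2+/- and 14 in Double-Het, the genotypes with the lowest means of Ifit2 and Ifit3. Pecam1, an adhesion molecule of endothelium, was at 12.84 to 14.43, 12.44 to 14.30, 11.52 to 12.07 and 10.95 to 11.78 in the 4 genotypes. The log2 of the summed level was 16.25 to 17.72, 15.88 to 17.62, 15.23 to 15.73 and 14.92 to 15.34. None of the 16 was at the lowest value of the files. Wild-type sample 3 had the lowest endothelial mean (11.84) and the lowest Ifit2 and Ifit3 of its group, and Falcor-/- sample 10 had the highest endothelial mean (13.23) and the highest Ifit2 and Ifit3 of its group. Falcor-/- sample 7 went the other way, with the second-lowest endothelial mean of its group (11.78) and the second-highest Ifit2 and Ifit3, and in Falcor-/- as a whole 16 of 16 endothelial markers had means below wild type (median -0.76) while Ifit3 differed by 0.33. Of 6 alveolar type 1 markers, 0, 3 and 3 fell in Falcor-/-, Foxa2+/- and Double-Het, and wild-type sample 3 had the lowest mean of these too (13.96). The part of endothelial or alveolar type 1 RNA in the Ifit results was not tested. Of 10 measured mesenchymal markers, 1, 5 and 8 fell in Falcor-/-, Foxa2+/- and Double-Het, and of 10 dendritic cell markers 2 rose, 0 changed and 1 fell. Of 9 measured lymphocyte markers 1, 0 and 1 fell, and of 4 granulocyte markers tested 0, 0 and 1.

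**Figure D4:**
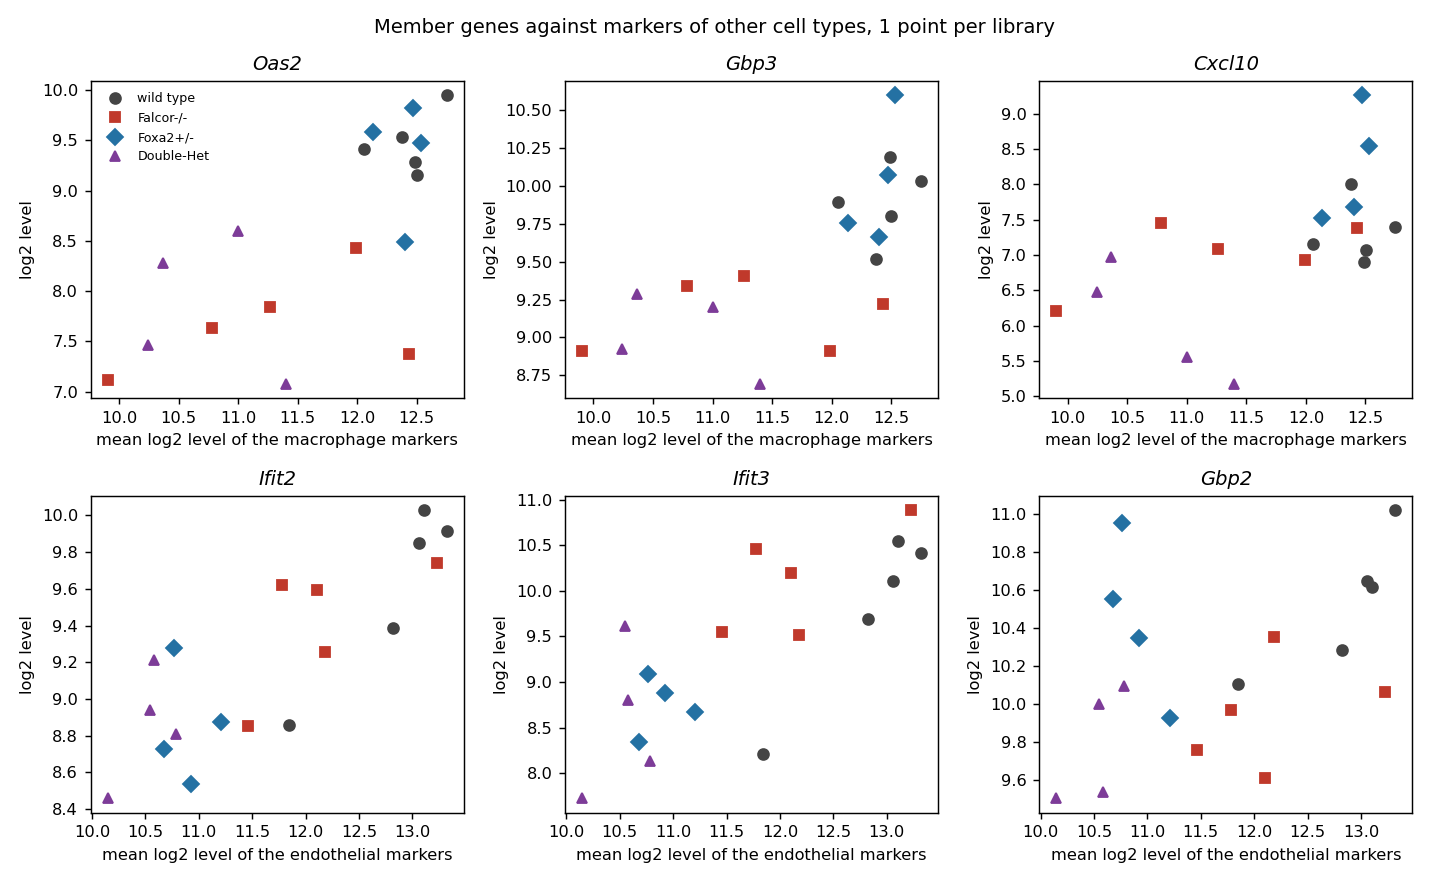
Log2 level of 6 member genes (vertical axes) in the 18 libraries, coloured by genotype, with Oas2, Gbp3 and Cxcl10 plotted against the mean log2 level of the macrophage markers and Ifit2, Ifit3 and Gbp2 against that of the endothelial markers (horizontal axes). Falcor-/- samples 7 and 9 have macrophage means of 11.99 and 12.43 with Oas2 below all wild-type libraries, and wild-type sample 3 lies low for both the endothelial mean and Ifit3.

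Likeness between genes was measured as Pearson's r of log2 levels over the 18 libraries, which share genotype and sample composition, and is given without a p. The genes whose course was most like the mean of the 10 were Oasl2 (r = 0.840, and 0.798 after subtracting each genotype's mean), Kirrel (0.834 and 0.584), Loxl2 (0.83 and 0.630), Col5a1 (0.827 and 0.742), Galnt15 (0.827 and 0.593), Tnfsfm13 (0.819 and 0.596), Ifitm3 (0.810 and 0.766) and Adam15 (0.810 and 0.537). Of these 8, Oasl2 and Ifitm3 are on the pathway lists. For single members the most similar other gene was Ifi27l2a, an interferon target, for Irf7 (0.904, and 0.914 within genotypes). It was Akap5 for Ifit2 (0.920 and 0.855), Ablim3 for Ifit3 (0.915 and 0.842), Vcam1, an adhesion molecule of activated endothelium, for Cxcl10 (0.835 and 0.657), and Apoe for Gbp3 (0.854 and 0.467). The others were Rell1 for Oas2 (0.866 and 0.595), Loxl3 for Ifit1 (0.849 and 0.811), Casp12 for Isg15 (0.839 and 0.836), Rbfox2 for Ddx58 (0.857 and 0.696) and Csf1 for Gbp2 (0.881 and 0.791).

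Among the members, the closest pairs were Ifit2 with Ifit3 (r = 0.873, and 0.830 within genotypes) and Oas2 with Irf7 (0.859 and 0.817). Oas2 and Gbp3 were close over all libraries (0.824) and less so within genotypes (0.396). So Oas2 and Irf7 varied together from library to library inside a genotype, while the likeness of Oas2 and Gbp3 lay more in the genotype means.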

How the data were processed

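Values per gene and library were used as deposited by the authors, who gave log2 expression levels. The submitters' processing notes name STAR, limma and mm9. How reads were counted and scaled, and with which annotation, is not given in the sources used here. Values of all 18 libraries follow 1 distribution (medians 11.03), as after quantile normalization, so a shift common to all genes would not be seen. Depth is unknown, and no pseudocount was added.

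Ensembl identifiers were matched to GENCODE symbols for 14994 of 15544 genes. Genes with a mean under 6 log2 units were left out (295 genes). limma 3.58.1 (R 4.3.3) was fitted with 1 mean per genotype over all 18 libraries and an intensity trend, for 6 contrasts, with Benjamini-Hochberg adjustment over the 15249 genes. The steps were tested on simulated data. Exact permutation tests used scipy 1.17.1. Alternatives were no filter, a filter at 8, no trend, library weights, the 2 genotypes alone, and each library left out. The labels give no batch.

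The 10 members and all gene lists were chosen with earlier results of these data known. All members are named, and from the pathway lists up to 8 genes per comparison with wild type that passed with the smallest adjusted p, plus measured paralogs of the Oas, Ifit and Gbp families; some genes that the rule names are not reported here. Upstream receptors, factors and effectors named without passing (Stat2, Ifih1, Mavs, Mx1, Mx2), and Ifnar2, Ifitm3, Irf1, Irf8, Irf9 and Ccl5, were chosen after their values were seen. Likeness names the 8 genes with the highest r to the members' mean, and for a single member the most similar gene. Promoter sequences are RefSeq's.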

Additional observations from a re-analysis of the deposited data

How the results depend on the processing

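With library weights in the fit, 3446, 1947 and 4939 genes changed in Falcor-/-, Foxa2+/- and Double-Het against wild type (1444, 932 and 2254 without weights), 4757 in Foxa2+/- minus Falcor-/- (2540 without) and 2125 in Double-Het minus Foxa2+/- (370 without). Of the 10 genes, 1 then changed in Foxa2+/- against wild type and 1 in Double-Het minus Falcor-/-. Weights also turned the sign of 3 differences that did not pass: Isg15 in Double-Het became 0.15 against wild type and 0.24 against Foxa2+/-, and Ifit3 in Double-Het minus Foxa2+/- became 0.014. Fits on only the 2 genotypes compared gave 490 genes for Falcor-/- against wild type, 1173 for Foxa2+/- minus Falcor-/- and 336 for Double-Het minus Falcor-/- (785 otherwise). Of the 10 genes they called 2 in Falcor-/- against wild type, 3 in Double-Het against wild type, 3 in Foxa2+/- minus Falcor-/- and 0 in Double-Het minus Foxa2+/-. For the other pairs, the same fits gave 1144 genes for Foxa2+/- against wild type, more than the 932 of the main fit. They gave 2024 for Double-Het against wild type and 252 for Double-Het minus Foxa2+/-. Fits on 2 genotypes hold fewer samples, and the cause of the changed counts was not tested. Without the Falcor-/- libraries 6, 8 and 10, an alternative chosen after seeing the data because their macrophage markers were low, 36, 102 and 203 genes changed in Falcor-/- against wild type, Foxa2+/- minus Falcor-/- and Double-Het minus Falcor-/-, with 0 of the 10 genes in each, and Oas2 in the last became -0.049. These fits have 2 Falcor-/- samples. The filter at 8, no filter and no trend moved no count of all genes by more than 1.5 times.

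With each library left out in turn, the genes changed against wild type numbered 354 to 3927 in Falcor-/-, 558 to 1119 in Foxa2+/- and 1348 to 2443 in Double-Het. They numbered 761 to 4744 in Foxa2+/- minus Falcor-/-, 419 to 1232 in Double-Het minus Falcor-/- and 90 to 381 in Double-Het minus Foxa2+/-. Of the 10 genes, 0 to 2 changed in Foxa2+/- and 2 to 6 in Double-Het against wild type, 2 to 4 in Foxa2+/- minus Falcor-/-, 0 to 1 in Double-Het minus Falcor-/- and 0 to 3 in Double-Het minus Foxa2+/-. Signs turned only for differences that did not pass. Against wild type these were Ifit3 in Falcor-/- (-0.071 to 0.51), Oas2 (-0.29 to 0.16), Isg15 (-0.36 to 0.062), Irf7 (-0.19 to 0.071), Gbp2 (-0.26 to 0.082) and Gbp3 (-0.059 to 0.25) in Foxa2+/-, and Isg15 in Double-Het (-0.35 to 0.031). In Foxa2+/- minus Falcor-/- they were Ifit1 (-0.44 to 0.038) and Isg15 (-0.0089 to 0.41), and in Double-Het minus Falcor-/- Oas2 (-0.074 to 0.43). In Double-Het minus Foxa2+/- they were Ifit1 (-0.54 to 0.053), Ifit2 (-0.12 to 0.14), Ifit3 (-0.53 to 0.10), Isg15 (-0.23 to 0.19) and Ddx58 (-0.088 to 0.0024). No paired analysis was possible because the replicate numbers run from 1 to 18 and no 2 genotypes share one. Depth is unknown, so counting error could not be set against these differences.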
